A study of Mus musculus with 4 samples.

Results

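Microglia identity and activation transcription factors are described here through 9 genes of the 16798 in the count table: Sall1, Mef2c, Maf, Mitf, Bhlhe40, Bhlhe41, Spi1, Irf8 and Runx1. They were taken by name, with no threshold on a measured value, and all 9 were found. The cells were CD45+ immune cells of the brain cortex, read by 10x Genomics single-cell RNA sequencing, which counts molecules as unique molecular identifiers (UMIs) near the 3′ end of transcripts. All mice were 18 months old and carried APP/PS1, transgenes that cause amyloid deposition. The AD group was APP/PS1 with no further allele named, and the ADAM group was APP/PS1 Axl-/- Mertk-/-, which per the labels lacks these 2 receptor tyrosine kinases, with no restriction to a cell type named. There were 2 libraries a genotype (AD 1, AD 2, ADAM 1, ADAM 2), each from 2 pooled cortices, so the spread between libraries is that between pools and not between single mice, and no amyloid-free group was compared.

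In microglia, PU.1 (the product of Spi1) opens enhancers of the myeloid lineage together with IRF8, RUNX1 and MEF2C, and SALL1 and MAF act on top of these to hold the gene program of the resting, homeostatic cell. Around amyloid plaques microglia turn into disease-associated microglia (DAM), which lose homeostatic genes and gain genes of lipid handling and lysosomes. BHLHE40 and BHLHE41 are paired repressors that bind E-box sequences, and MITF, a relative of TFEB, binds related E-boxes and is known for lysosomal genes.

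Levels are CPM (UMIs scaled to the total of the sum) of the cells of 1 class or state summed within 1 library, and are compared only within a gene. The authors gave 9077 microglia 1 of 7 numbered states, and state 0 held 766 to 2004 cells a library and state 5 held 594 to 771. State 0 was the homeostatic end: 14 of 20 listed homeostatic genes were at least 2-fold lower in state 5 than in state 0 in each of the 4 libraries, and 26 of 31 DAM genes were at least 2-fold higher there, against 7% and 4.52% of 11655 genes. The homeostatic list holds the members Sall1 and Mef2c, and Sall1 is 1 of the 14, so this naming rests in part on a member. The 7 microglia markers summed to 13192 to 17163 CPM in microglia, against 336 to 576 CPM in T and NK cells, and no marker was at 0. The sources used here do not say how the authors set classes and states. They rest on the expression of the same cells, so differences across them are descriptions, with no test, and tests are given for genotype only.

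The genotype labels were checked first with Axl. Its level in microglia was 104 and 67.1 CPM in the 2 AD libraries and 5.37 and 7.22 CPM in the 2 ADAM libraries, so that both ADAM libraries lay far below both AD libraries. For Axl the log2 fold, ADAM over AD, was -3.70 with an SE of 0.32 (edgeR adjusted p = 0.195). Axl had an edgeR adjusted p under 0.05 in macrophages and in states 0, 3, 4 and 5. It was not called in all microglia, state 2, monocytes, proliferating cells or T and NK cells. The test in all microglia thus missed a difference of this size, and a gene that does not pass there need not be unchanged. Mertk was 274 and 296 CPM in the AD libraries and 246 and 274 in the ADAM libraries, but reads from the 3′ end of a transcript need not touch the deleted part and check nothing about the deletion. Library totals ran from 14963857 to 29831947 UMIs, and 24 cell barcodes occurred in more than 1 library. Some sets held RNA of other cell types. State 2 of AD 1 had 61628 CPM of choroid plexus markers (5 to 1612 in the other libraries), and state 2 of ADAM 2 had 170234 CPM of haemoglobin genes (0 in the others). State 2 of ADAM 2 also had 4055 CPM of macrophage markers (31.2 to 73.3 in the others) and 3878 CPM of neutrophil markers (87.0 to 1000). Cells of state 2 were shallow in every library, with medians of 808.5 to 886.5 UMIs, against 4145 to 5904.5 in state 0. Neutrophil markers reached 69872 CPM in ADAM 2 monocytes, 17751 in its proliferating cells and 768 in its microglia, against at most 4168, 170 and 54 CPM in the same sets of the other libraries.

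The start regions of 2 members are printed because they hold motifs of factors encoded by other members. Of the 9 genes, 6 had entries among the RefSeq start regions (build GRCm38.p6), with 14 start sites. The stretches were cut to the bases before the start that no annotated exon of GENCODE covers, and read 5′ to 3′ on the strand of the gene. In Bhlhe41 (chr6:145865559-145865670, minus strand) the capitals mark the palindromic E-box CACGTG, the motif of BHLHE40 and BHLHE41 themselves, which begins 153 bases before the start.
Bhlhe41: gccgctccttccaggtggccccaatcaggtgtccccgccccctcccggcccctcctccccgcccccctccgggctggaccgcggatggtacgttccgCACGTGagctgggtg
In Mitf (chr6:97806808-97807051, plus strand) the first capitals mark the MAF half-site TGCTGAC, 222 bases before the start, and the second mark AACCACA, the RUNX motif TGTGGTT read on the other strand, 82 bases before the start.
Mitf: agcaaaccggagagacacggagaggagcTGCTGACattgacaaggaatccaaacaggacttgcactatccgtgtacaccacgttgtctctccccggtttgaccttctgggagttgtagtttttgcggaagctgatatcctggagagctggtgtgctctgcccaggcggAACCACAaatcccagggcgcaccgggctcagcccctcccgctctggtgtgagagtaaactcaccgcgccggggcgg
Other matches among these motifs within 250 bases before a member's start were the E-box in Runx1 (71 bases before its first start) and the MAF half-site in Mitf (236 bases before its second). Runx1 also had the RUNX motif at 2 places after that start, and Mef2c had an AP-1 motif, TGANTCA, 137 bases before 1 of its starts. These letters are common. On both strands, the E-box was present in 7.15% of all 32851 start regions of 300 bases in the table, the RUNX motif in 5.27%, the MAF half-site in 4.67% and the AP-1 motif in 7.81%. A match is a description of letters and not a binding site.

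Across the microglia states, 3 of the 9 factors differed at least 2-fold between state 5 and state 0 in all 4 libraries: Bhlhe40 was higher, and Maf and Sall1 were lower. Of 11655 genes with at least 40 UMIs in these sums, 4.52% were that much higher and 7% that much lower. The other 6 members moved by less than 2-fold, and their order from Mitf at the top to Spi1 at the bottom is given below. The median gene was itself 0.32 lower on the log2 scale in state 5 than in state 0, and 0.04 lower after TMM scaling, which corrects for the share of RNA taken by highly expressed genes. TMM scaling therefore raised each ratio by about that difference, and the split of all genes past 2-fold went from 527 higher and 816 lower to 680 higher and 492 lower. The same 3 members passed under both scalings.

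**Figure D1:**
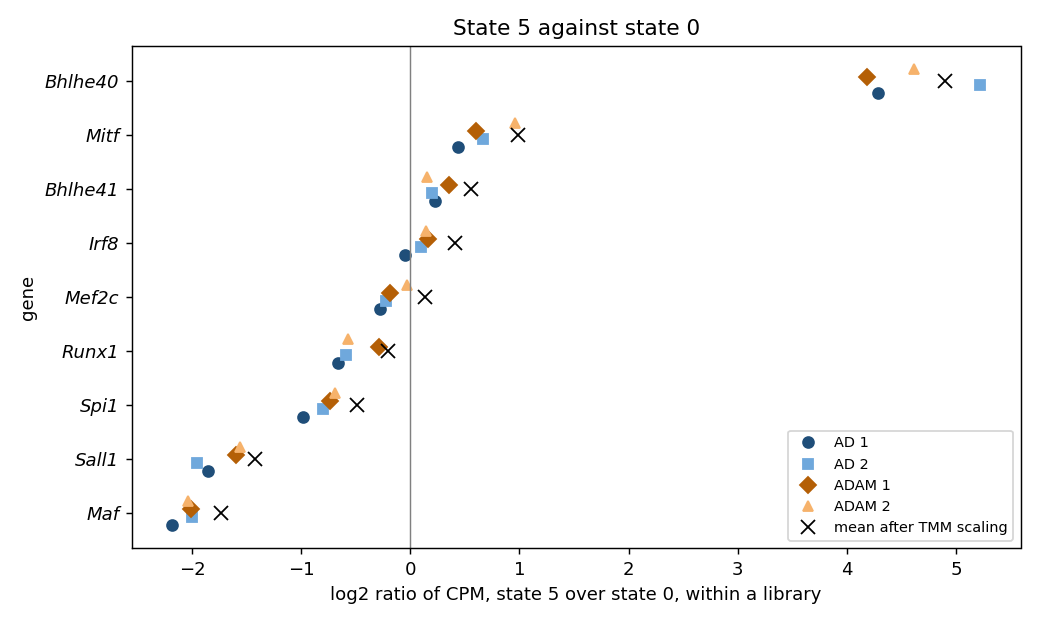
Log2 ratio of CPM in state 5 over state 0 within each of the 4 libraries (coloured points), for the 9 genes, with the mean after TMM scaling as a cross. Bhlhe40 lies between 4.19 and 5.22 in the libraries, Maf and Sall1 lie at or below -1.56, and Mef2c alone has its cross on the other side of 0 from its points.

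Sall1 (chr8:89027235-89044162, minus strand) encodes a zinc finger repressor that among brain cells marks microglia. In state 0 it was at 304, 289, 246 and 234 CPM in AD 1, AD 2, ADAM 1 and ADAM 2, and in state 5 at 83.9, 74.6, 81.5 and 79.5 CPM. Every state 5 value was below every state 0 value, and the mean log2 ratio was -1.74 ± 0.20 (SD, n = 4 libraries), 3.34-fold lower, or -1.42 after TMM scaling. Over the 5 states with at least 20 cells in each library, the order was state 0, state 2 (147 CPM), state 3 (85.7), state 5 (79.9) and state 4 (37.1), and only states 3 and 5 overlapped as neighbours. In the small state 6 it was at 33.2 to 63.9 CPM.

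Maf (chr8:115682942-115707794, minus strand) encodes the large MAF factor c-Maf, a regulator of the macrophage lineage. Its state 0 levels were 627, 600, 637 and 496 CPM in the same order of libraries, and its state 5 levels 138, 150, 159 and 121 CPM. The groups of values did not overlap, and the mean log2 ratio of -2.06 ± 0.09 (SD, n = 4) became -1.74 after TMM scaling. Maf was low in all of states 3, 4, 5 and 6, with means of 163, 154, 142 and 147 CPM, and neighbours in that order overlapped. An antisense gene, Gm15655, overlaps Maf, and had 257 UMIs in all microglia.

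Bhlhe40 (chr6:108660629-108666925, plus strand) was nearly absent in state 0, at 3.48, 1.60, 2.66 and 3.34 CPM. In state 5 it was at 68.0, 59.7, 48.6 and 82.0 CPM. The ratio within a library was 19.5-fold, 37.3-fold, 18.2-fold and 24.6-fold, in the same order. It was also at least 2-fold above state 0 in every library in states 4 and 6, with means of 40.3 and 87.1 CPM. These states held some RNA of other cell types. Macrophage markers summed to 180 to 534 CPM in state 4, against 9.96 to 21.5 in state 0 and 2400 to 3813 in macrophages. Monocyte markers summed to 229 to 722 CPM in state 6, against 11.6 to 36.2 in state 0 and 5756 to 13079 in monocytes. Their part in the levels of Bhlhe40 and the other members there was not tested. In states 2 and 3, at means of 17.1 and 11.6 CPM, the ratio of Bhlhe40 was above 2 in each library as well, but on few UMIs. State 2 had 3, 2, 2 and 6 UMIs of it and state 3 had 2, 5, 4 and 5. The ratios on 3 UMIs or fewer had exact 95% counting intervals of 1.64 to 32.6 (AD 1), 0.75 to 26.8 (AD 2) and 0.39 to 14.0 (ADAM 1) in state 2, and of 0.32 to 12.9 (AD 1) in state 3. In state 1, of 19 to 67 cells a library, it was at 0 to 11.7 CPM, and 0 UMIs in AD 1 leave the ratio there without a value.

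Its partner Bhlhe41 (chr6:145858243-145865558, minus strand), whose start region with the E-box is printed above, was present at similar levels in both states. It was at 189, 145, 151 and 159 CPM in state 0 and at 222, 167, 193 and 177 CPM in state 5. The state 5 value was higher in each library, by 1.11-fold to 1.28-fold, while the ranges of the 2 states overlapped. The mean log2 ratio was 0.23 ± 0.09 (SD, n = 4), or 0.55 after TMM scaling. The 5 state means of Bhlhe41 lay between 113 and 189 CPM and all neighbours in their order overlapped.

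Mitf (chr6:97807052-98021349, plus strand) was the member furthest above state 0 after Bhlhe40. It was at 37.2, 35.3, 34.6 and 30.4 CPM in state 0 and at 50.6, 56.1, 52.4 and 59.3 CPM in state 5, with no overlap. The log2 ratio was 0.67 ± 0.22 (SD, n = 4), or 0.99 after TMM scaling. In state 4 its mean was 50.5 CPM, and in state 3 it was lowest, at 5.10 to 23.1 CPM. The other members of its family that could be compared did not follow it: Tfe3 was at 97.5 CPM in state 0 and 47.5 in state 5, and Tfeb at 29.4 and 19.1 CPM.

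Spi1 (chr2:91082390-91115756, plus strand) was lower in state 5 in every library. It was at 438, 413, 404 and 343 CPM in state 0 and at 221, 238, 242 and 212 CPM in state 5, without overlap, a log2 ratio of -0.80 ± 0.13 (SD, n = 4), or -0.49 after TMM scaling. State 2 had the lowest Spi1 of the 5 larger states, at 115 to 166 CPM, and there it was at least 2-fold below state 0 in each library. The ratio to state 0 was 0.39 in AD 2 and 0.41 in ADAM 1, whose state 2 held few of the choroid plexus and haemoglobin transcripts. It was 0.26 in AD 1 and 0.49 in ADAM 2, and the part of these transcripts and of depth was not tested.

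Runx1 (chr16:92601466-92826149, minus strand), a factor of blood cell development, was at 266, 292, 239 and 306 CPM in state 0 and at 169, 194, 196 and 206 CPM in state 5. The 2 ranges did not overlap, and the log2 ratio was -0.53 ± 0.16 (SD, n = 4), or -0.21 after TMM scaling. It varied most in the smaller states: state 2 was highest, at 375 to 572 CPM, and state 3 lowest, at 10.2 to 47.5 CPM, the lowest value from 2 UMIs in AD 1. The part of the shallow depth and of RNA of other cells in the state 2 level was not tested. The antisense gene Gm26626 overlaps Runx1, with 13 UMIs in microglia.

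In unscaled CPM, Irf8 and Mef2c had the mean ratios nearest to 1. Irf8 (chr8:120736358-120756694, plus strand), the interferon regulatory factor that pairs with PU.1, was at 488, 442, 430 and 453 CPM in state 0 and at 472, 473, 483 and 502 CPM in state 5, ranges that overlapped. Its mean log2 ratio was 0.09 ± 0.10 (SD, n = 4), but 0.41 after TMM scaling, with state 5 then higher in all 4 libraries. Mef2c (chr13:83504034-83667080, plus strand), a MADS-box factor known to restrain inflammatory responses of microglia, was at 1064, 1003, 876 and 1039 CPM in state 0 and at 876, 857, 769 and 1018 CPM in state 5. Its log2 ratio of -0.18 ± 0.11 (SD, n = 4) turned to 0.14 after TMM scaling, so it has no direction that both scalings share. Both genes were lowest in state 3, with means of 184 CPM for Irf8 and 350 CPM for Mef2c.

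**Figure D2:**
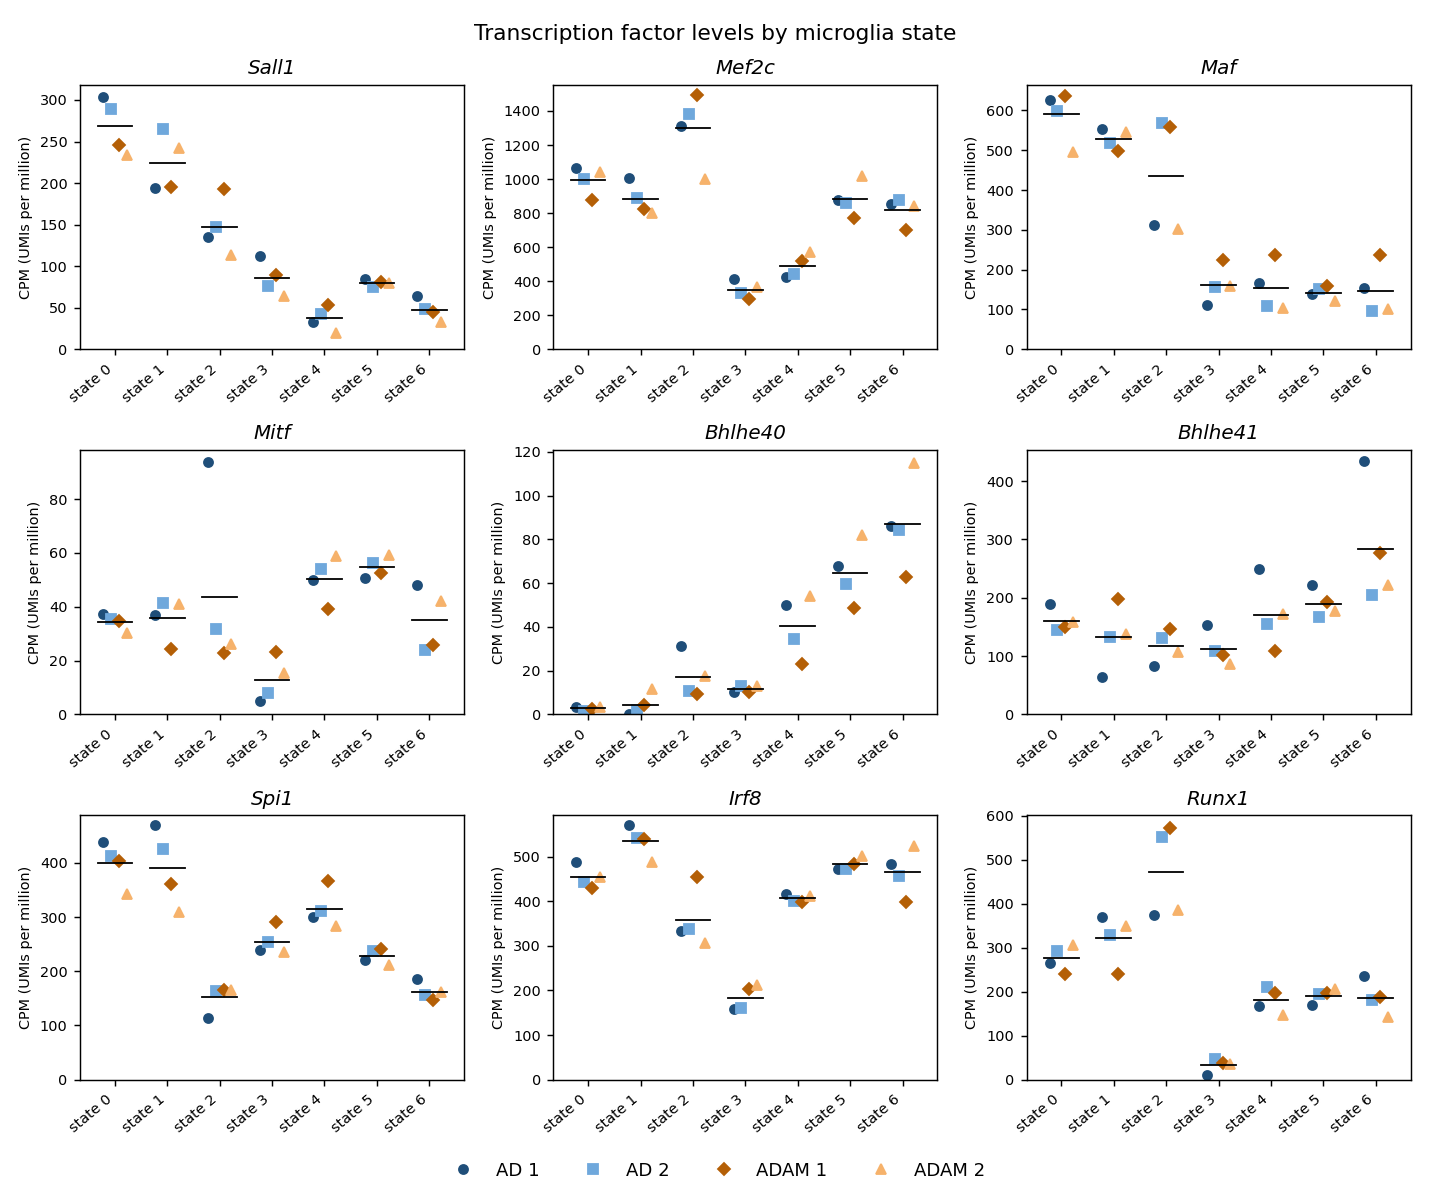
CPM of the 9 genes (1 panel each, linear axis from 0) in the 7 microglia states; each point is 1 library and the black line is the mean of the 4 libraries. Sall1 and Maf are highest in state 0, Bhlhe40 is highest in states 5 and 6, and Runx1 is lowest in state 3.

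Counted over states, at least 2-fold from state 0 in all 4 libraries, state 1 had no member that differed (1.06% of all genes higher and 1.2% lower). State 2 had Spi1 lower, and Bhlhe40 higher on the few UMIs given above (2.07% and 2.87% of all genes, 230 and 319, or 189 and 426 after TMM scaling). State 4 had Bhlhe40 higher, and Sall1 and Maf lower (2% and 5.69%). In state 6, which had 9 cells in AD 2, Bhlhe40 was higher, and Sall1, Maf and Spi1 were lower (2.4% and 11.1%), but Spi1 no longer passed after TMM scaling. In state 3, 5 members were lower (Sall1, Mef2c, Maf, Irf8 and Runx1) and Bhlhe40 was higher on few UMIs, where 22.7% of all genes were lower and 0.454% higher. The median gene in state 3 was 1.07 below state 0 on the log2 scale, and 0.60 below after TMM scaling, when Runx1 was the 1 member that stayed at least 2-fold lower. The split of all genes there went from 50 higher and 2501 lower to 326 and 1381.

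The share of cells with at least 1 UMI gave the same picture for the main members after every cell was thinned to 2000 UMIs, which was needed because cells of state 5 were deeper (medians of 6201 to 7883 UMIs a library) than those of state 0 (4145 to 5905). In AD 1, AD 2, ADAM 1 and ADAM 2, Bhlhe40 was found in 0.70%, 0.35%, 0.57% and 0.49% of state 0 cells and in 10.6%, 11.02%, 7.12% and 13.3% of state 5 cells. Before thinning these shares were 1.70%, 0.85%, 1.45% and 2.07% in state 0 and 31.3%, 33.2%, 25.5% and 35.5% in state 5. So the state 5 shares were higher in every library on both counts. Cells under 2000 UMIs were left out, 10 to 50 a library in state 0, 13 to 29 in state 5 and 70 to 161 in T and NK cells.

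Sall1 went the other way, from 37.7% to 45.7% of thinned state 0 cells to 13.4% to 15.4% of state 5 cells, against 0.79% to 1.32% of T and NK cells, a type without known Sall1 expression. Maf was found in 59.4% to 67.0% of thinned state 0 cells and in 20.9% to 26.4% of state 5 cells. Mitf was found in 5.57% to 7.13% and in 8.25% to 11.2% of them. In all, 2 members had a higher share in state 5 in each library (Bhlhe40 and Mitf) and 5 a lower one (Sall1, Maf, Spi1, Runx1 and Mef2c). Without thinning it was 4 higher and 4 lower. After thinning to 1000 UMIs it was 3 higher, with Irf8 added, and 5 lower. Thinning does not include TMM scaling, under which the Mef2c ratio changed direction. Shares were not counted over all genes, so these counts have no background to be read against.

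**Figure D3:**
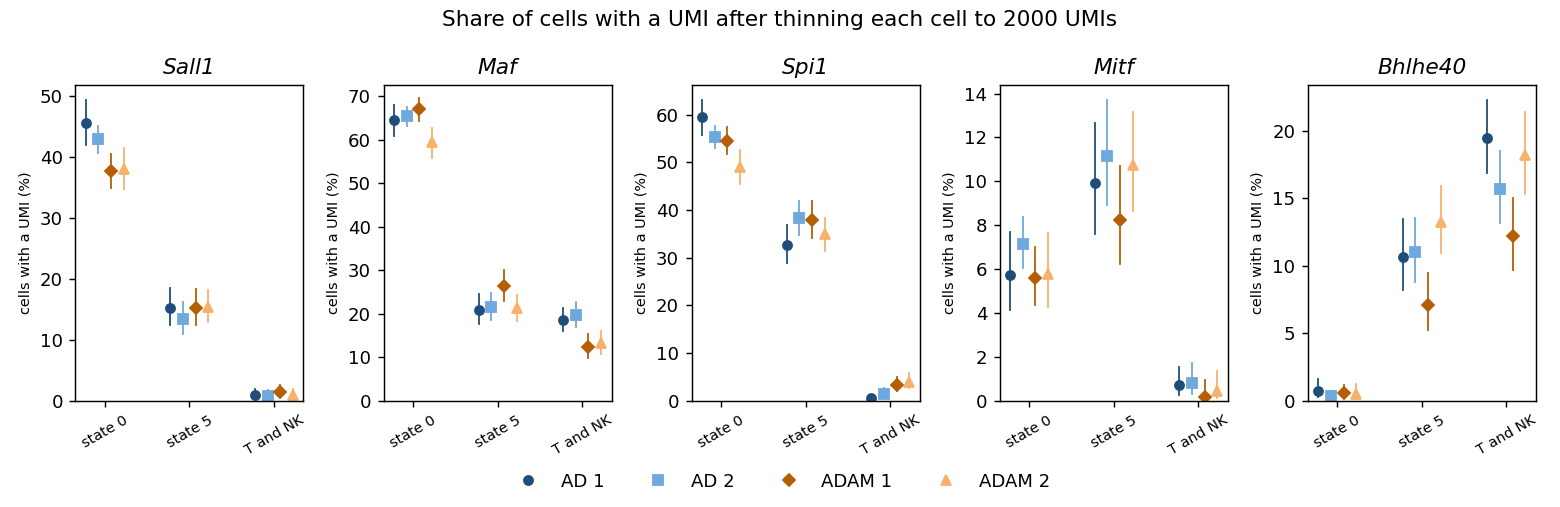
Percent of cells with at least 1 UMI of Sall1, Maf, Spi1, Mitf and Bhlhe40 in state 0, state 5 and T and NK cells, after each cell was thinned to 2000 UMIs; points are libraries and bars are exact 95% binomial intervals, which cover counting error only. Bhlhe40 is below 1% in state 0, at 7.12% to 13.3% in state 5 and at 12.2% to 19.5% in T and NK cells.

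Between cell classes, 4 of the 9 factors had their highest mean in microglia with no overlap with the next class, among the 5 classes with at least 20 cells in each library. These were Sall1 (180 ± 27 CPM, SD, n = 4 libraries, against 54.0 ± 23 in macrophages), Mef2c (921 ± 72 against 643 ± 70 in macrophages), Bhlhe41 (173 ± 26 against 63.5 ± 12 in macrophages) and Mitf (42.0 ± 2.0 against 19.1 ± 8.3 in macrophages). How many of all genes were highest in microglia without overlap was not counted, so the 4 of 9 have no background to be read against. Microglia markers summed to 3787 to 8021 CPM in the macrophage class, and their part in the levels there was not tested. Sall1 was at 4.33 to 13.5 CPM in monocytes and 4.02 to 8.27 CPM in T and NK cells.

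The pan-myeloid factors were shared more widely. Spi1 was highest in monocytes, at 660, 695, 934 and 754 CPM, followed by macrophages (371 ± 61 CPM), microglia (321 ± 36) and proliferating cells (261 ± 128), which overlapped one another as neighbours. It was lowest in T and NK cells, at 4.64 to 20.8 CPM. Irf8 was at 456 ± 14 CPM in microglia and 391 ± 80 in macrophages, which overlapped, and at 179 ± 48 in monocytes. Runx1 was at 262 ± 38 CPM in macrophages and 237 ± 21 in microglia, which overlapped as well.

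Maf was highest in macrophages, at 660, 939, 994 and 481 CPM, above its 301 to 449 CPM in microglia in all libraries. Among the 5 classes with at least 20 cells in each library, Bhlhe40 was the 1 member whose mean was highest in T and NK cells, at 126, 96.3, 59.9 and 106 CPM. Of these classes its mean was lowest in microglia, at 29.8 ± 12 CPM, though all neighbours in its order overlapped. In the 3 to 21 endothelial cells a library it was at 167 to 344 CPM. B cells and neutrophils had under 20 cells in at least 1 library. Bhlhe40 was at 12.2 to 25.5 CPM in B cells and at 5.39 to 25.8 CPM in neutrophils. In them Mef2c was at 745 to 957 CPM in B cells, where it is a known lineage factor, and Spi1 at 545 to 930 CPM in neutrophils. Neutrophils also carried 3533 to 6527 CPM of microglia markers, and the 197 CPM of Sall1 in AD 1 neutrophils came from 17 UMIs.

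**Figure D4:**
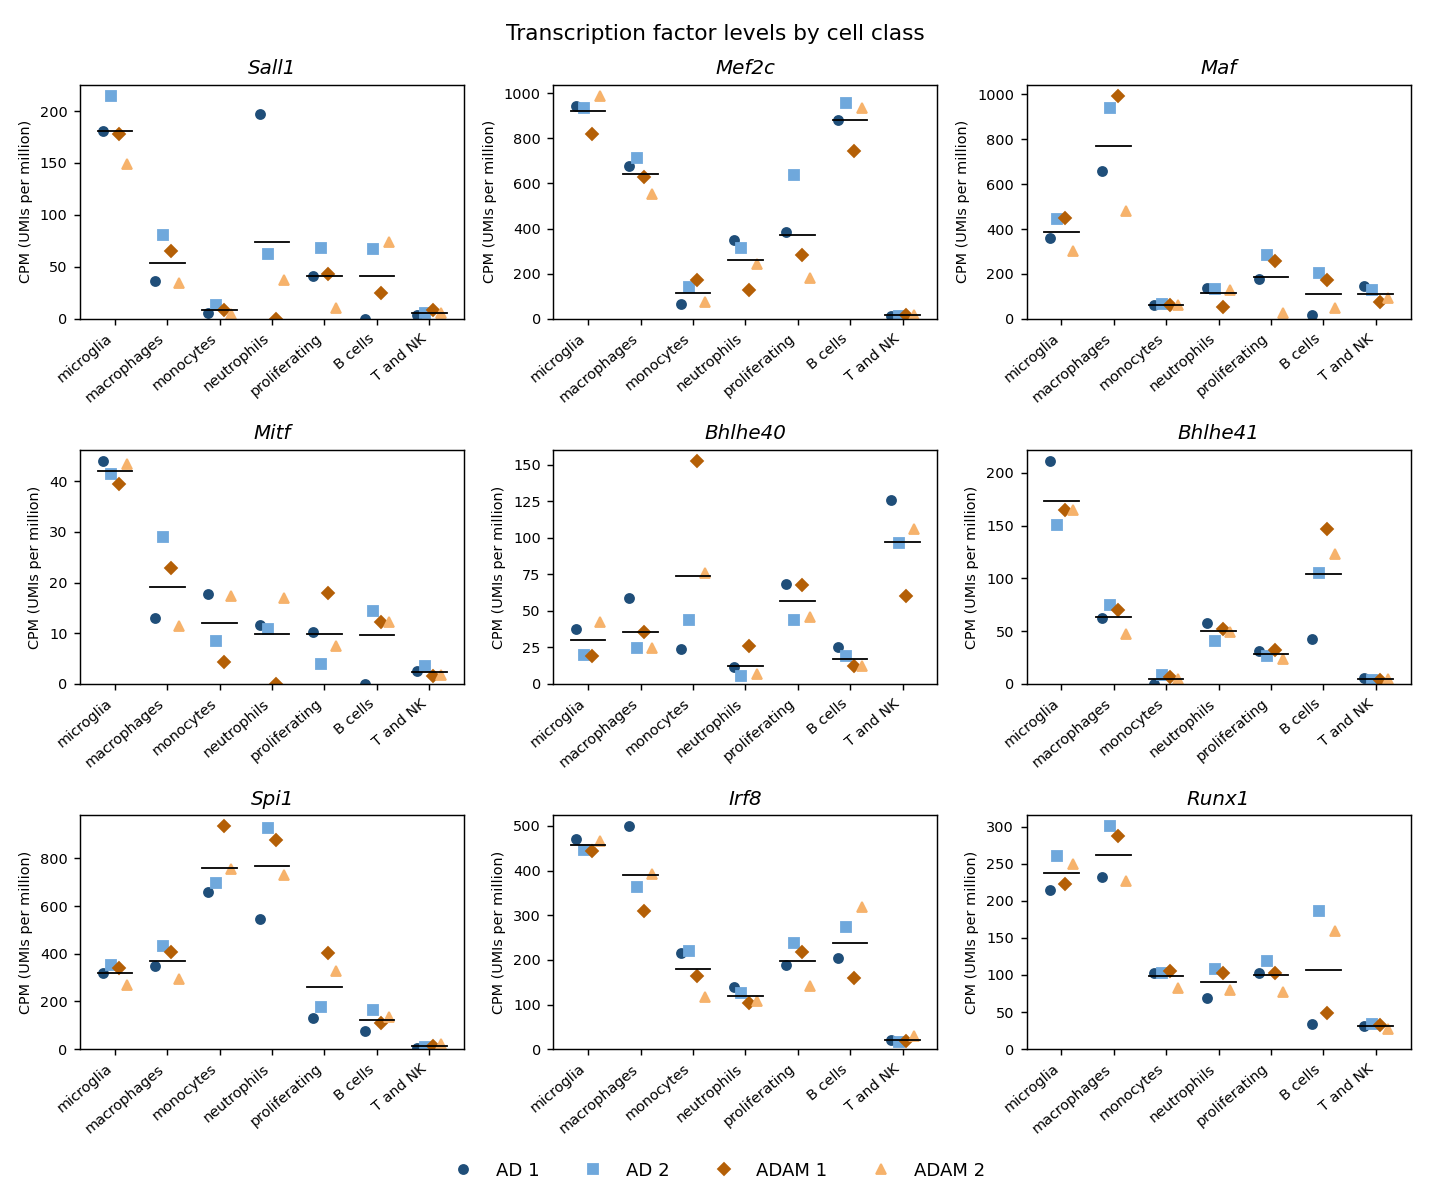
CPM of the 9 genes (1 panel each, linear axis from 0) in 7 cell classes; each point is 1 library and the black line is the mean of the 4 libraries. Sall1, Mitf and Bhlhe41 are highest on average in microglia, Maf in macrophages, Spi1 in monocytes and neutrophils, and Bhlhe40 in T and NK cells.

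The test of genotype asked whether loss of Axl and Mertk went with other levels of these factors. No member passed edgeR's quasi-likelihood test at an adjusted p of 0.05 in all microglia, where 0.0419% of 11924 genes passed, in state 0 (0.101% of 10912 genes) or in state 5 (0.153% of 10436 genes). The share of all genes that passed was 0.0154% in macrophages, 0.0635% in state 2, 0.313% in state 3 and 0.127% in state 4, again without a member among them. Over 10 classes and states, 0 of 82 pairs of a member and a set passed, and 6 had an unadjusted edgeR p under 0.05. All microglia contain the states, so the pairs are not independent. The 6 were 2 each in monocytes, proliferating cells and T and NK cells. There 550 of 6460, 622 of 7124 and 496 of 9533 genes had such a p. DESeq2 and limma-voom also called 0 pairs, with 5 and 7 at an unadjusted p under 0.05. In those 3 classes, in the same order, 291, 372 and 143 genes had such a p with DESeq2. With limma-voom it was 551, 533 and 459 genes there, and 467 of 10912 in state 0, which held 1 of the 7. With 2 libraries a genotype an exact permutation test of a single value cannot go below 0.333, so the tests rest on the spread shared across genes.

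In all microglia Sall1 was at 180 and 214 CPM in AD and at 178 and 149 CPM in ADAM. It was the 1 member of 9 whose libraries did not overlap between genotypes, where 28.5% of all genes did not. Its log2 fold, ADAM over AD, was -0.22 (SE 0.13, 95% interval -0.52 to 0.09), with an edgeR adjusted p of 0.9999. Within state 0 the fold was -0.22 (SE 0.11, interval -0.45 to 0.01) and within state 5 it was 0.02 (SE 0.12, interval -0.23 to 0.27). The state 5 by genotype interaction, the test of that difference, gave 0.25 (SE 0.12) with an unadjusted p of 0.036 and an edgeR adjusted p of 0.504. None of the 9 members passed that interaction, which 1.02% of 11132 genes did. An unadjusted edgeR p under 0.05 was found for 988 of these genes, and for 1 of the 9 members. With limma-voom it was again 1 member, and with DESeq2 or median-ratio size factors it was 0.

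Bhlhe40 had the widest interval. Its levels in all microglia were 37.6 and 19.7 CPM in AD and 19.3 and 42.7 CPM in ADAM, so that 1 library of each genotype was high and 1 low. State 5 made up 37.1% and 23.3% of the AD microglia and 27.2% and 37.4% of the ADAM microglia, in the same order. The log2 fold was 0.21 (SE 0.66, interval -1.98 to 2.40) and became -0.10 when the states were weighted equally. Within state 5 the fold was 0.04 (SE 0.25, interval -0.57 to 0.65). The sum over all microglia alone cannot tell more cells of a state from more RNA per cell. Values within state 5 were taken from cells of that state alone, and whether they vary with its share was not tested.

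The other 7 members had narrower intervals in microglia. The log2 folds were 0.01 for Mef2c (interval -0.33 to 0.34), -0.05 for Maf (-0.50 to 0.40), 0.02 for Mitf (-0.25 to 0.29), -0.08 for Bhlhe41 (-0.49 to 0.34), -0.09 for Spi1 (-0.41 to 0.23), 0.04 for Irf8 (-0.25 to 0.34) and 0.05 for Runx1 (-0.27 to 0.38). Each interval spans 0, and differences within it were not detectable with these 4 libraries. In state 0, 3 members had genotypes that did not overlap (Sall1, Spi1 and Mitf, where 36.6% of genes did not), and in state 5, 2 members (Irf8 and Runx1, where 33.7% did not). Spi1 lies 37.6 Mb from Mertk on chromosome 2, and its fold in state 0 was -0.11 (SE 0.12).

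**Figure D5:**
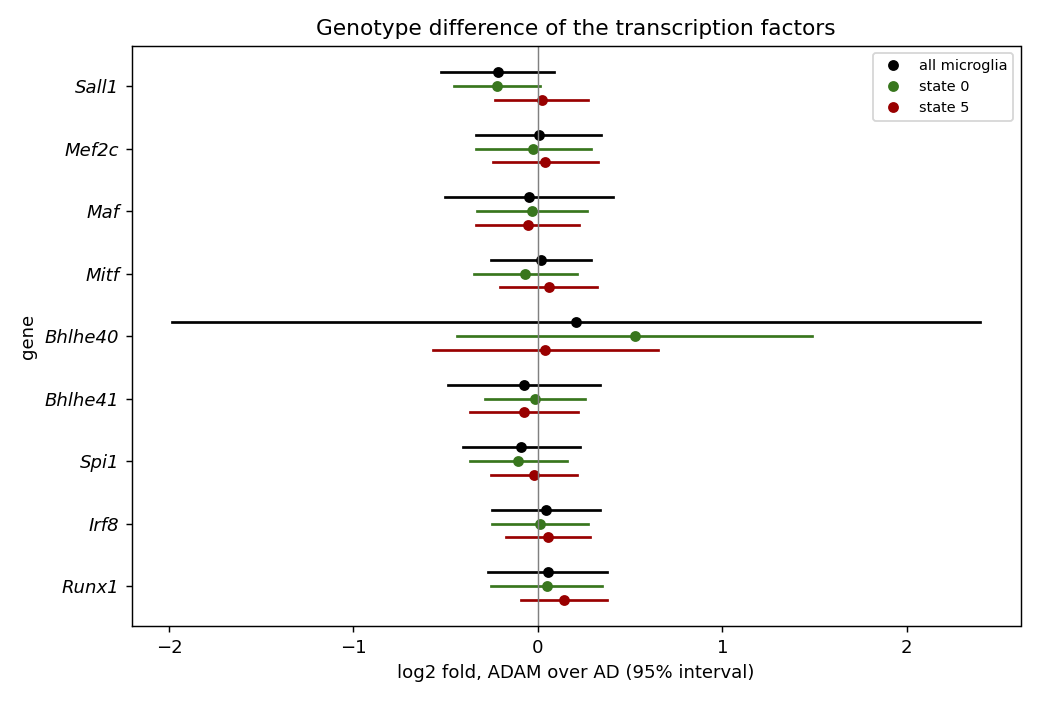
Log2 fold of ADAM over AD (point) with its 95% interval (line) from edgeR for the 9 genes, in all microglia, state 0 and state 5. All 27 intervals span 0, and the widest is that of Bhlhe40 in all microglia, from -1.98 to 2.40.

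Outside microglia, and in its smaller states, genotypes whose libraries did not overlap were found for 1 of 9 members in macrophages (29.3% of all genes), 4 of 7 tested in monocytes (35.6%), 3 of 8 in proliferating cells (40.2%) and 4 of 8 in T and NK cells (32.9%). In state 2 it was 1 of 7 (27.7%), in state 3 it was 3 of 7 (32.6%) and in state 4 it was 1 of 9 (30.4%). The largest log2 folds came from 3 classes. In monocytes, Bhlhe40 was at 23.8 and 44.0 CPM in AD and at 153 and 76.0 CPM in ADAM, a log2 difference of 1.73 with SE 0.39 (edgeR adjusted p = 0.185, where 0.155% of genes passed). It passed without ADAM 1 (1.29, edgeR adjusted p = 0.030), without ADAM 2 (2.10, edgeR adjusted p = 0.0074) and with no filter on low counts (1.78, edgeR adjusted p = 2.9e-06), fits in which 274 of 6268, 86 of 6432 and 276 of 13005 genes passed. It did not pass without AD 1 (1.40, edgeR adjusted p = 0.989) or without AD 2 (2.24, edgeR adjusted p = 0.360), where 0 genes passed. Irf8 was at 216 and 220 CPM in AD monocytes and at 164 and 117 CPM in ADAM monocytes, a log2 difference of -0.60 with SE 0.21 (edgeR adjusted p = 0.429). Neutrophil markers in monocytes summed to 77.3, 1975, 4168 and 69872 CPM in the order of the libraries, and monocyte markers to 13079, 11777, 5756 and 10884 CPM, and their part in these values was not tested.

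In proliferating cells, Spi1 was at 130 and 178 CPM in AD and at 404 and 330 CPM in ADAM, a log2 difference of 1.38 with SE 0.35 (edgeR adjusted p = 0.221, where 0.0842% of genes passed). Mef2c was at 384 and 638 CPM in AD and at 282 and 179 CPM in ADAM, a log2 difference of -1.01 with SE 0.40 (edgeR adjusted p = 0.506). This class is a mixture whose marker levels differed between the genotypes. Its T cell markers summed to 3758 and 2029 CPM in AD and to 817 and 366 CPM in ADAM, and its microglia markers to 6106, 6002, 4427 and 1345 CPM. Its monocyte markers summed to 1122, 694, 447 and 4248 CPM and its neutrophil markers to 0, 170, 106 and 17751 CPM, and the part of these in the values was not tested. Without ADAM 1, 4 members passed here (Spi1, Sall1, Maf and Mef2c), with log2 folds of 1.24, -2.23, -2.96 and -1.36, in a fit that rests on ADAM 2 alone for its genotype and in which 750 of 7283 genes passed. Without ADAM 2, Spi1 alone of the members passed, at 1.504, with 778 of 7426 genes. No member passed without AD 1 or without AD 2.

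In T and NK cells, Maf, which T cells also use, was at 146 and 130 CPM in AD and at 73.7 and 90.3 CPM in ADAM. The genotypes did not overlap, and the log2 fold of -0.74 (SE 0.14) had an edgeR adjusted p of 0.0558, just outside the threshold that 0.241% of 9533 genes met. With no filter on low counts it passed (-0.75, edgeR adjusted p = 7.1e-05), as did 107 of 14646 genes. Maf did not pass with DESeq2, limma-voom or median-ratio size factors. Without ADAM 2 its fold was -0.89, in a fit that rests on ADAM 1 alone for its genotype. Cd8a was at 497 to 631 CPM in the 4 libraries, and Cd4 at 72.6, 17.1, 18.9 and 10.8 CPM, highest in AD 1. Spi1, a factor of myeloid cells, was at 4.64 and 9.19 CPM in AD T and NK cells and at 12.6 and 20.8 CPM in ADAM, a log2 difference of 1.29 with SE 0.35 (edgeR adjusted p = 0.398), and it passed with no filter (1.28, edgeR adjusted p = 0.0042). Microglia markers there summed to 347, 336, 576 and 395 CPM and neutrophil markers to 11.4, 36.4, 19.3 and 1705 CPM, and monocyte markers to 552, 440, 709 and 737 CPM. Other myeloid genes were higher with it: 3 of the 19 tested of the list regulated by PU.1 and IRF8 passed (Tyrobp, Fcer1g and C1qa; list median 0.74, all genes -0.01), as did 4 of 29 DAM genes, and 18 of 20 homeostatic genes had a positive fold (median 0.55). The part of these in the Spi1 and Maf values was not tested.

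The families and partners of the 9 factors were read from fixed lists, with members above and below counted as before. Of 30 other microglia and macrophage factors, 28 had enough UMIs. Of these, 1 was at least 2-fold higher in state 5 than in state 0 in each library and 7 were lower. Over all genes 4.52% were that much higher and 7% lower. The median log2 ratio of the 28 was -0.59, against -0.32 over all genes. The higher one was Hif1a, which encodes the oxygen-sensing factor, at 137, 119, 117 and 146 CPM in state 0 and 575, 538, 558 and 623 CPM in state 5. The lower ones were Smad3, Klf2, Ikzf1, Rel, Fos, Jun and Egr1. These calls and those in the families below are in unscaled CPM and were not repeated after TMM scaling. Over all genes that scaling turned 527 higher and 816 lower into 680 higher and 492 lower. Jun, Fos and Egr1 are immediate early genes, which respond within minutes to stimuli and to tissue handling.

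Within the families, the small MAF factor Maff was at a mean of 3.47 CPM in state 0 and 19.1 CPM in state 5. Runx2 and Runx3 were also higher in state 5, but from means of 0.65 and 0.42 CPM to 2.73 and 4.20 CPM, where Runx1 was lower. At least 2-fold lower in each library were Irf1 (means of 42.1 and 17.3 CPM in state 0 and state 5) and Irf4 (3.04 and 0.31) of the IRF family. The same held for Etv5 (64.0 and 26.5 CPM) of the ETS factors and Mef2a (612 and 261 CPM) of the MEF2 family. The SALL family had Sall3 at a mean of 109 and 62.0 CPM, not 2-fold apart.

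Between genotypes, no gene of the 8 family lists passed in all microglia, state 0 or state 5. Among the other factors Egr1 was higher in ADAM within state 5, at 114 and 111 CPM in AD and 175 and 245 CPM in ADAM, a log2 difference of 0.90 with SE 0.14 (edgeR adjusted p = 0.036). The interaction of state 5 and genotype was 0.88 for Egr1 (SE 0.12, edgeR adjusted p = 1.4e-08) and 0.54 for Jun (SE 0.14, edgeR adjusted p = 0.020). By DESeq2 the adjusted p was 0.0012 for Egr1 and 0.316 for Jun, and Jun also missed the threshold without AD 1, AD 2 or ADAM 1 (edgeR adjusted p = 0.269, 0.098 and 0.554). In that interaction 7 of 31 DAM genes and 2 of 25 lysosomal genes of the CLEAR network, a set known as targets of TFEB, passed with a negative value, a smaller state 5 difference in ADAM than in AD, and 1 of 20 homeostatic genes (Jun) with a positive one. Of all 11132 genes 1.02% passed, 84 with a negative and 29 with a positive value, and by DESeq2 11 passed. Of 20 myeloid genes known to be regulated by PU.1 and IRF8, 4 were at least 2-fold higher and 5 lower in state 5 than in state 0 (4.52% and 7% of all genes), and 1 (Cybb) passed the interaction, with a negative value. The lists share genes with one another.

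Patterns across 9 sets (4 other classes and 5 states) were set side by side as mean log2 CPM, for 10377 genes at 10 CPM or more in at least 1 set. The values are descriptions, since the sets share libraries and free RNA. Nearest to Sall1 were Ptgs1 (Pearson r = 0.98), P2ry12 (0.98), the purine receptor by which resting microglia sense injury, and Thrsp (0.98). Nearest to Spi1 was Irf5 (0.99), and nearest to Irf8 were Crat (0.99), Cebpa (0.99) and Il15 (0.98). Mef2c had Tbxas1 (0.99), Pla2g15 (0.99) and Tnfrsf11a (0.98) next to it, and Maf had Slc9a9 (0.95), Tbc1d9b (0.95) and Trim36 (0.93).

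Mitf was nearest to Pfkfb3 (0.98), an enzyme that drives glycolysis, to Samd8 (0.98) and to Atp6ap1 (0.97), a subunit of the proton pump of lysosomes. Bhlhe40 had less close neighbours, Pqlc3 (0.94), Fxyd5 (0.94) and Ptger4 (0.93), the last a prostaglandin E2 receptor. Bhlhe41 was nearest to Mcts2 (0.99), Fblim1 (0.99) and Myh10 (0.98), and Runx1 to Tbc1d24 (0.98), Zfp36l1 (0.98) and Lrrc58 (0.98). Among the 9 members themselves, Mef2c and Irf8 were the closest pair (r = 0.95), Irf8 and Mitf followed (0.92), and Bhlhe40 had a negative r with each of the other 8, from -0.82 with Sall1 to -0.32 with Spi1. By rank (Spearman), only 2 of the 27 nearest genes stayed the same, so the names of near neighbours depend on the measure.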

How the data were processed

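Per the labels' protocols, cortices were digested, cleared of debris on Percoll and sorted for CD45, and libraries used 10x Genomics 3′ v3.1 chemistry. The authors deposited raw UMI counts of 16798 genes in 15451 cells, not normalized, and a table of classes, states and doublet marks. Per the submitters' processing notes, the tools were Seurat 3.2.1.9002 and Cell Ranger 3.1.0, and the build was mm10. For filters and clustering the sources used here give nothing. The 823 doublets without a class and 216 microglia and T cell doublets were left out.

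Counts were summed per library over each class and state. Tests ran on the 10 sets that held 20 cells or more per library, with edgeR 4.0.16 in R 4.3.3 (quasi-likelihood, TMM scaling, minimum count 10, robust, Benjamini-Hochberg at 0.05 over all genes), first tried on simulated data. Alternatives were DESeq2 1.42.0, limma 3.58.1 (voom), median-ratio size factors, no filter, a replicate block, each library left out, and, for microglia, without state 2, with T cell doublets and with states weighted equally. CPM is without TMM scaling unless stated. Genes were placed with GENCODE M21 and RefSeq start regions.

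The 9 members and the lists were chosen with earlier results of these data known. Named from each list were genes that passed, otherwise up to 3 with the highest microglia CPM, and for each member the 3 nearest patterns; genes past 2-fold between states were named after their values were seen.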

Additional observations from a re-analysis of the deposited data

How the results depend on the processing

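No member passed in microglia, state 0, state 5 or the interaction under any alternative run. Over all sets, 4 member and set pairs passed with no filter on low counts, 2 with the replicate block, 2 with the block crossed (an alternative chosen after seeing the data), and 0 to 5 with 1 library left out; DESeq2, voom and median-ratio size factors gave 0. The replicate block passed Maf and Spi1 in T and NK cells (-0.74 and 1.29; edgeR adjusted p = 1.2e-04 and 0.0071) and no other pair. The libraries share only a number: no label ties them, and deviations of same-numbered libraries correlated from -0.283 to 0.112 over the 10 sets (-0.223 in microglia). Genes called in microglia, 5, were 17 with DESeq2, 18 with no filter, 0 with the replicate block, 8 without state 2, 8 with states weighted equally and 12 to 139 with 1 library left out. In state 0, 11 became 7 with voom, 94 with no filter, 35 with the replicate block and 6 to 174 with 1 library left out. In state 5, 16 became 112 with no filter and 30 to 141 with 1 library left out, and in the interaction 113 became 11 with DESeq2 and 51 to 173 with 1 library left out. The cause was not tested.

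Small microglia folds changed sign. With states weighted equally they were -0.10 for Bhlhe40, 0.10 for Maf, 0.045 for Spi1 and -0.013 for Mef2c, and Mef2c was -0.0039 with voom and -0.0038 with the replicate block. With 1 library left out the ranges were -0.50 to 0.73 for Bhlhe40, -0.32 to 0.20 for Bhlhe41, -0.025 to 0.11 for Irf8, -0.33 to 0.19 for Maf, -0.17 to 0.16 for Mef2c, -0.083 to 0.11 for Mitf, -0.068 to 0.17 for Runx1 and -0.23 to 0.035 for Spi1. Bhlhe40 ranged from -0.12 to 0.94 in state 0 and from -0.39 to 0.36 in state 5, and Sall1 from -0.077 to 0.11 in state 5. The Mef2c ratio of state 5 over state 0 was 0.14 after TMM scaling. Of the 27 nearest patterns, 2 stayed by Spearman's rho and 11 to 15 with 1 library left out. A library left alone in its genotype was assumed to vary like the others. Depth limits states 1, 2, 3 and 6 and the shares of Mitf and Bhlhe40, and with 2 pools a genotype the intervals are wide.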
